A study of Mus musculus with 12 samples.

Results

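Semaphorins are guidance proteins that steer growing axons and dendrites, and plexins and neuropilins are the receptors that bind them. Members were found by mouse symbol, matched to the Ensembl gene identifiers of the count tables, and all 31 were present among the 41388 genes counted: 20 semaphorins (the ligands) and 11 receptors, made up of 9 plexins and 2 neuropilins. RNA was measured in primary cortical neurons prepared from Swiss Webster mouse embryos at embryonic day 16. The neurons received lentivirus at day 5 in vitro and were harvested at day 10, and ribosomal RNA was then depleted. There were 3 groups of 4 libraries. The control vector group carried virus with no huntingtin insert (its infection label reads as an empty vector for 3 libraries and as a control vector for the other). The Htt-25Q group carried exon 1 of huntingtin with 25 glutamines, the wild type form, and the Htt-72Q group carried exon 1 with 72 glutamines, the mutant form in this model of Huntington disease. All groups shared the infection, so none was left uninfected, and the model expresses only a fragment of the protein. The labels used here do not give the promoter that drives the insert or the share of cells infected, and they do not say that the replicates were separate cultures, so p-values measure the spread between these libraries.

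Class 3 semaphorins are secreted, classes 4, 5 and 6 span the membrane, and Sema7a is held to the membrane by a lipid anchor. Most class 3 semaphorins bind a neuropilin, which passes the signal to an A-type plexin. Class 4 semaphorins mainly use B-type plexins, class 6 semaphorins use A-type plexins directly, Sema7a binds plexin C1, and Sema3e binds plexin D1 without a neuropilin. Plexins are GTPase-activating proteins that act on Ras-family GTPases and on the cytoskeleton, and in developing cortex the family is known for axon growth, dendrite shape, neuron migration and synapse formation.

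Libraries held 12439335 to 27471442 counts, of which mitochondrial ribosomal RNA took 6.71% to 14.2% in control vector, 7.77% to 13.2% in Htt-25Q and 10.8% to 14.8% in Htt-72Q. Each description starts with a number (22, 24, 26, 27 or 27_1), called preparation here, whose meaning the labels do not state. Mitochondrial ribosomal RNA took a higher share in Htt-72Q than in control vector in all 4 preparations that hold both, and higher than in Htt-25Q in 1 of 3, and its part in the results was not tested. Control vector 1, from preparation 22, stood apart for these genes: it was the highest of the 4 control libraries in 19 of the 31 members and in 9 of the 11 receptors, against 32.8% of all genes tested. The 12 libraries also formed 2 classes of 6, separated where the level of Ctnnd1 left its widest gap. Gapdh lay at 9.16 to 20.3 CPM (counts scaled to the library total) in the first class and at 35.4 to 50.2 CPM in the other, which held 2 control, 1 Htt-25Q and 3 Htt-72Q libraries, so the classes are uneven over the Htt-25Q and Htt-72Q groups. Results that change without a library, or with that class in the model, are given beside the gene concerned. Endogenous and inserted sequence are not told apart in the counts of Htt, which averaged 143 ± 63.8 CPM in control vector, 148 ± 27.0 CPM with the 25Q insert and 169 ± 36.0 CPM with 72Q (SD, n = 4). Htt passed the test in no comparison, so its count does not check the labels.

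Levels between genes were compared per length, as RPKM (counts per kilobase of gene model, scaled to the library total) after trimmed-mean (TMM) scaling of the libraries. In control vector the highest were Sema6b at 37.4 ± 3.54 RPKM, Sema7a at 29.3 ± 5.38, Plxna1 at 29.2 ± 13.5, Plxnd1 at 21.9 ± 5.23 and Plxna2 at 20.3 ± 7.04 (SD, n = 4). The lowest were Sema3b at 0.386 ± 0.0456 RPKM and Sema3g at 0.127 ± 0.0278. The order is coarse: for 29 of its 30 neighbouring pairs the ranges of the 4 control libraries overlapped. Summed over the 20 ligands, the level was 160 ± 13.4 RPKM in control vector, 150.4 ± 14.1 RPKM in Htt-25Q and 94.8 ± 5.34 RPKM in Htt-72Q. Summed over the 11 receptors it was 149 ± 51.0, 121 ± 17.4 and 70.8 ± 13.8 RPKM in the same order. For both sums every Htt-72Q library lay below every library of the other groups. The ratio of summed receptors to summed ligands overlapped between the groups, from 0.723 to 1.27 for control vector, from 0.726 to 0.90 for Htt-25Q and from 0.63 to 0.972 for Htt-72Q. In preparations 22, 24, 26 and 27_1 it was 0.972, 0.746, 0.63 and 0.647 in Htt-72Q. Control vector lay higher in each, at 1.27, 0.955, 0.723 and 0.739. Htt-25Q, at 0.844, 0.745 and 0.90 in 22, 24 and 27_1, was higher than Htt-72Q only in 27_1. A difference in this ratio was not tested.

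**Figure D1:**
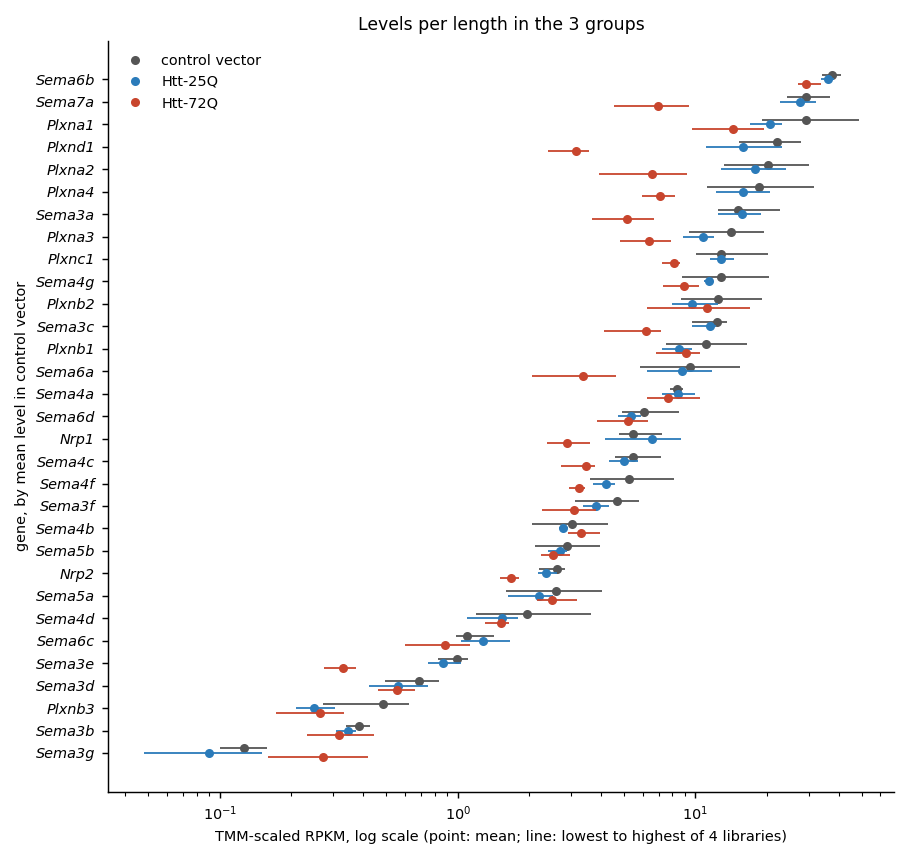
Mean level per length of the 31 genes in control vector, Htt-25Q and Htt-72Q, in TMM-scaled RPKM on a log axis, with genes ordered by their control level and lines from the lowest to the highest of 4 libraries. Sema7a and Plxnd1, among the highest in control vector at 29.3 and 21.9 RPKM, lay at 6.94 and 3.13 RPKM in Htt-72Q.

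The comparison of Htt-72Q with control vector asks which of these genes differ with the mutant insert. It changes both the presence of exon 1 and the glutamine tract, while Htt-72Q and Htt-25Q differ by label in tract length. All 31 members passed the filter on low counts, Sema3g only through its Htt-72Q libraries. Against control vector 17 were lower in Htt-72Q and none was higher (edgeR quasi-likelihood test, two-sided, Benjamini-Hochberg adjusted p under 0.05 over 14707 genes), while 23.2% of all genes tested were called, 13.7% lower and 9.44% higher. The receptors held 9 of these calls among 11 genes, with a median log2 fold change of -0.92, and the ligands 8 among 20, with a median of -0.36. The median was -0.64 over all members and 0.03 over all genes tested. Whether receptors and ligands differ from each other was not tested. Against Htt-25Q, which shares the Htt-72Q libraries with the first comparison, 13 members were lower and 1 was higher, where 22.5% of all genes were called, 13.4% lower and 9.07% higher. There the ligands gave 6 lower and 1 higher of 20 (median -0.31) and the receptors 7 lower of 11 (median -0.66). The 13 lower against Htt-25Q were all among the 17 lower against control vector, and the 4 others were Sema4f, Sema6b, Plxna1 and Plxnb3. The ranges of Htt-72Q and control vector did not overlap for 15 lower members, beside 13.6% of all genes, and for 1 higher member, Sema3g, beside 10.1%. Fewer cells of a type and less RNA per cell cannot be told apart in these bulk libraries.

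**Figure D2:**
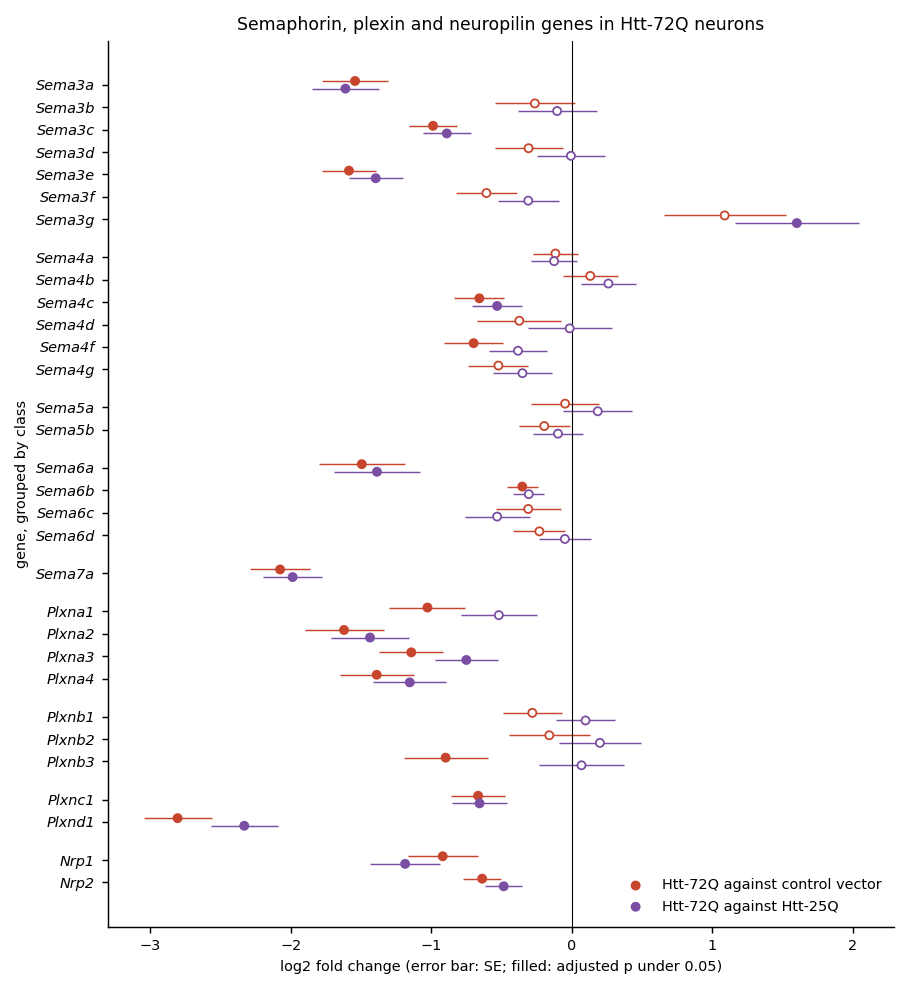
Log2 fold change of each member in Htt-72Q against control vector and against Htt-25Q, grouped by class, with lines for the SE and filled points for an adjusted p under 0.05. Plxnd1 (-2.81 and -2.33) and Sema7a (-2.08 and -1.99) lie farthest to the left, and Sema3g is the only filled point to the right of 0.

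The differences were also read within preparations. Against control vector 20 of the 31 members were lower and 1 was higher in all 4 preparations that hold both groups, beside 23.9% and 22.7% of all genes tested. Against Htt-25Q 19 were lower and 4 higher in all 3, beside 26.8% and 25.7%. The members called lower are among these, which adds no support, as the same libraries gave the calls. Without control vector 1, 15 members were called lower against control vector (8 receptors and 7 ligands), beside 1913 of 14852 genes tested. The median over all members was then -0.40, where it was -0.64 with all libraries. With the class of library in the model the counts were 16 lower against control vector and 12 lower against Htt-25Q. Over all 14707 genes they were 2161 and 1942. The 8 genes Sema3a, Sema3c, Sema3e, Sema6a, Sema7a, Plxna2, Plxna4 and Plxnd1 were called lower in both comparisons in each of the 26 alternative analyses. These alternatives reuse the same libraries, and the matching share of all genes was not counted, so no trait of the family can be read from it. The plot of values in every library shows the 8 genes.

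**Figure D3:**
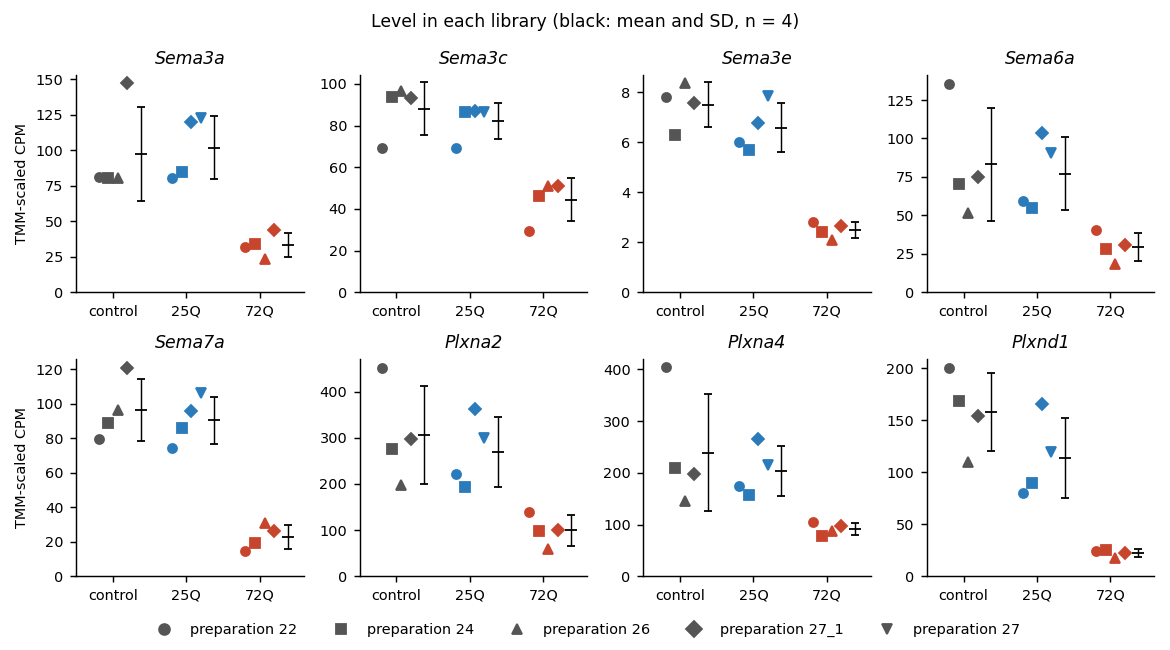
TMM-scaled CPM of 8 genes in each of the 12 libraries, with marker shape for preparation and black bars for the mean and SD of 4 libraries. In each panel the 4 Htt-72Q libraries lie below all 8 others.

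Among the secreted semaphorins 3 of 7 fell against both groups. Sema3a, the repellent that collapses growth cones through neuropilin 1, lay at 80.9, 80.3, 80.7 and 147 CPM in control vector 1 to 4, at 80.3, 85.0, 119.8 and 122 CPM in Htt-25Q 1 to 4 and at 32.0, 33.9, 23.7 and 43.5 CPM in Htt-72Q 1 to 4. All Htt-72Q libraries were below all others, and control vector 4 and Htt-25Q 3 and 4, from preparations 27 and 27_1, were the highest. Sema3a fell 2.91-fold against control vector (log2 fold change -1.54 ± 0.24 SE, adjusted p = 0.00031) and 3.06-fold against Htt-25Q (-1.61 ± 0.24, adjusted p = 0.000218). Sema3e, the ligand of plexin D1, was far scarcer, at 7.79, 6.28, 8.38 and 7.55 CPM in control vector, 6.02, 5.68, 6.77 and 7.86 CPM in Htt-25Q and 2.82, 2.39, 2.07 and 2.66 CPM in Htt-72Q. The highest Htt-72Q library was thus under the lowest of the other 8. Its fall was 3-fold against control vector (-1.59 ± 0.19, adjusted p = 4.25e-05) and 2.63-fold against Htt-25Q (-1.40 ± 0.19, adjusted p = 0.000125).

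Sema3c, which binds both neuropilins and attracts cortical axons, lay at 69.1, 93.5, 96.6 and 93.4 CPM in control vector, 69.3, 86.4, 87.0 and 86.7 CPM in Htt-25Q and 29.6, 46.1, 51.0 and 51.1 CPM in Htt-72Q. Library 1, from preparation 22, was the lowest in each group, and the groups still did not overlap. The fold change was -0.99 ± 0.17 against control vector (adjusted p = 0.000867) and -0.89 ± 0.17 against Htt-25Q (adjusted p = 0.00186). Sema3a, Sema3c, Sema3d and Sema3e lie in 1 stretch of 5.35 Mb on chromosome 5 (chr5:12383166-17730268, GRCm38), and 3 of these 4 fell. The other, Sema3d, differed by -0.31 ± 0.24 from control vector (adjusted p = 0.392) and by -0.01 ± 0.24 from Htt-25Q (adjusted p = 0.989). Genes of the stretch outside the family are not given here, and any link of the falls with position was not tested.

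Sema3g, a secreted semaphorin known from blood vessels, was the 1 member called higher. It had only 5 to 24 counts a library: 0.484, 0.718, 0.454 and 0.643 CPM in control vector, 0.217, 0.466, 0.262 and 0.683 CPM in Htt-25Q and 0.722, 1.37, 1.91 and 0.919 CPM in Htt-72Q. The Htt-72Q libraries lay above all others, with Htt-72Q 1 close to the highest control library. Of the libraries that reach the 0.524 CPM asked for by the filter, 4 were Htt-72Q, 2 control vector and 1 Htt-25Q. Sema3g thus entered the test through the group in which it was high, and its call is no independent support for a rise. Its value was 1.60 ± 0.44 on the log2 scale against Htt-25Q (adjusted p = 0.0175) and 1.58 with no filter (adjusted p = 0.0369). The call was lost without Htt-25Q 1 (adjusted p = 0.0563) or Htt-25Q 3 (0.0588), and the value of 1.09 ± 0.43 against control vector did not pass (adjusted p = 0.0858). Sema3f, the ligand of neuropilin 2, averaged 15.9 ± 4.27 CPM in control vector, 13 ± 1.33 CPM in Htt-25Q and 10.5 ± 2.42 CPM in Htt-72Q (SD, n = 4). It differed by -0.61 ± 0.22 from control vector (adjusted p = 0.056), and passed without control vector 4 (-0.76, adjusted p = 0.0166), without Htt-72Q 2 (-0.74, 0.0451) and with preparation as a block (-0.60, 0.0283). Over all alternatives the value ran from -0.76 to -0.47, with an adjusted p up to 0.152. Sema3b, at 1.35 to 1.64 CPM on average, passed in neither comparison.

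Of the 6 class 4 semaphorins, transmembrane ligands of B-type plexins, 2 fell against control vector and 1 of them also against Htt-25Q. Sema4c, a ligand of plexin B2, lay at 27.2, 20.8, 17.5 and 17.4 CPM in control vector, 21.8, 18.1, 19.7 and 16.5 CPM in Htt-25Q and 14.0, 14.1, 14.3 and 10.3 CPM in Htt-72Q. The groups did not overlap, but Htt-72Q 4 was well below its own group. The fold change was -0.66 ± 0.18 against control vector (adjusted p = 0.0153; 0.0525 without Htt-72Q 4) and -0.53 ± 0.18 against Htt-25Q (adjusted p = 0.0443). The call against Htt-25Q was lost without control vector 2, without any 1 of the 4 Htt-25Q libraries and without Htt-72Q 1, 2 or 4 (adjusted p = 0.0527 to 0.139), and with library class in the model (0.0895).

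Sema4f lay at 41.8, 23.6, 18.5 and 23.9 CPM in control vector, 21.7, 23.6, 22.4 and 19.0 CPM in Htt-25Q and 17.1, 16.7, 17.7 and 15.0 CPM in Htt-72Q. Control vector 1 alone was above 24 CPM. Its fall against control vector (-0.70 ± 0.21, adjusted p = 0.0252) came to -0.40 without control vector 1 (adjusted p = 0.0594) and was also no longer called without Htt-72Q 2 (0.0559) or Htt-72Q 4 (0.0711). Against Htt-25Q it differed by -0.38 ± 0.21 (adjusted p = 0.212), which passed without control vector 1 (-0.39, 0.0457). Sema4a, Sema4b, Sema4d and Sema4g passed in neither comparison, with values from -0.52 (Sema4g) to 0.13 (Sema4b) against control vector. Sema4d, the ligand of plexin B1, lay at 23.5 CPM in control vector 1 and between 7.03 and 11.5 CPM in the other 11 libraries. Sema4g lay at 99.1 CPM in control vector 1 and 35.6 to 59.5 CPM elsewhere (adjusted p = 0.0932 against control vector). It passed against control vector without control vector 4 (-0.67, adjusted p = 0.032). With preparation as a block it passed (-0.48, adjusted p = 0.0391) where 27 and 27_1 count as 1 preparation, but not where they count as separate ones (0.0531). Over all alternatives its value there ran from -0.67 to -0.21, with an adjusted p up to 0.327.

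The class 5 semaphorins Sema5a and Sema5b, which carry thrombospondin repeats, passed in neither comparison. Their means were 27.9 ± 11.4 and 20.4 ± 5.55 CPM in control vector and 27.0 ± 4.99 and 17.9 ± 2.24 CPM in Htt-72Q (SD, n = 4).

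Of the 4 class 6 semaphorins, Sema6a fell against both groups and Sema6b passed against control vector. Sema6a, a transmembrane ligand of plexins A2 and A4, lay at 136, 70.7, 51.2 and 74.8 CPM in control vector, 59.6, 55.1, 103 and 90.7 CPM in Htt-25Q and 40.7, 28.2, 18.1 and 30.9 CPM in Htt-72Q. The Htt-72Q libraries were below all others despite a wide spread within each group. Sema6a fell 2.82-fold against control vector (-1.49 ± 0.31, adjusted p = 0.00277) and 2.62-fold against Htt-25Q (-1.39 ± 0.30, adjusted p = 0.00456). Sema6b, the highest member per length, lay at 136, 158, 138 and 164 CPM in control vector, 134, 138, 153 and 152 CPM in Htt-25Q and 107, 134, 112 and 113 CPM in Htt-72Q. Only Htt-72Q 2 came near the other groups. Its fall of 1.28-fold against control vector (-0.35 ± 0.11, adjusted p = 0.0328) was lost without control vector 2 or 4 or without Htt-72Q 1, 3 or 4 (adjusted p = 0.0631 to 0.0823). Against Htt-25Q the value was -0.31 ± 0.11 (adjusted p = 0.0615), and it passed without control vector 1 (0.0401), without Htt-72Q 2 (0.0424) and with library class in the model (0.0235). Over all alternatives the adjusted p there was up to 0.156. Sema6c and Sema6d passed in neither comparison (-0.31 and -0.23 against control vector). Sema6c against Htt-25Q (-0.53 ± 0.23, adjusted p = 0.117) passed with preparation as a block (-0.69, adjusted p = 0.047). Over all alternatives its adjusted p was up to 0.307.

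Sema7a, the lipid-anchored ligand of plexin C1 and of integrin beta 1, gave the largest fall among the ligands. It lay at 79.7, 88.6, 96.5 and 121 CPM in control vector, 74.5, 85.8, 95.9 and 106 CPM in Htt-25Q and 14.9, 19.3, 30.9 and 26.3 CPM in Htt-72Q. The highest Htt-72Q library was thus less than any control or Htt-25Q library by a wide gap, while control vector and Htt-25Q covered much the same range. Sema7a fell 4.22-fold against control vector (-2.08 ± 0.21, adjusted p = 9.89e-06) and 3.96-fold against Htt-25Q (-1.99 ± 0.21, adjusted p = 1.37e-05).

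Among the receptors, all 4 A-type plexins fell against control vector and 3 of them also against Htt-25Q. Plxna2, a receptor of Sema6a and a partner of neuropilins, lay at 452, 276, 198 and 297 CPM in control vector, 223, 193, 362 and 299 CPM in Htt-25Q and 139.8, 99.1, 59.4 and 99.4 CPM in Htt-72Q. No Htt-72Q library reached the others. Plxna2 fell 3.08-fold against control vector (-1.62 ± 0.28, adjusted p = 0.000847) and 2.71-fold against Htt-25Q (-1.44 ± 0.28, adjusted p = 0.00201). Plxna4, a receptor of Sema3a with neuropilin 1 and of class 6 semaphorins, lay at 404, 209, 145 and 198 CPM in control vector, 175, 157, 265 and 216 CPM in Htt-25Q and 105, 76.9, 86.7 and 96.5 CPM in Htt-72Q. Again the Htt-72Q libraries formed the lowest 4, close to each other, while control vector 1 lay far above its group. The fall was 2.62-fold (-1.39 ± 0.26, adjusted p = 0.00161) and 2.23-fold (-1.15 ± 0.26, adjusted p = 0.00546) in the same order.

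Plxna3, which acts with neuropilin 2 in the response to Sema3f, lay at 154, 136, 74.3 and 79.3 CPM in control vector, 83.3, 90.3, 94.4 and 69.7 CPM in Htt-25Q and 62.3, 54.4, 46.4 and 37.8 CPM in Htt-72Q. Control vector 1 and 2 were well above control vector 3 and 4, and all were above Htt-72Q. Its log2 fold change was -1.14 ± 0.23 against control vector (adjusted p = 0.0023) and -0.75 ± 0.23 against Htt-25Q (adjusted p = 0.0278), the latter lost without Htt-25Q 1, 2 or 3 or Htt-72Q 2, 3 or 4 (adjusted p = 0.0503 to 0.0899). Plxna1 lay at 438, 257, 172 and 188 CPM in control vector, 209, 180.0, 199 and 154 CPM in Htt-25Q and 175, 144, 87.0 and 112 CPM in Htt-72Q. Here Htt-72Q 1 exceeded control vector 3, so the groups overlapped. Plxna1 fell by 1.03 ± 0.27 on the log2 scale against control vector (adjusted p = 0.0131), and by 0.67 without control vector 1 (adjusted p = 0.0346). Against Htt-25Q its value of -0.52 ± 0.27 (adjusted p = 0.19) passed with preparation as a block (-0.47, adjusted p = 0.0347) where 27 and 27_1 count as 1 preparation, but not where they are separate (0.0587). Plxna1 shares 970 exonic bases with the antisense gene Gm26811, which had at most 69 counts, and the sources used here do not say whether the counting used strand.

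Of the 3 B-type plexins, receptors of class 4 semaphorins, 1 was called lower against control vector and none against Htt-25Q. Plxnb1 averaged 99.5 ± 34.4 CPM in control vector, 76.6 ± 10.5 CPM in Htt-25Q and 82.0 ± 14.7 CPM in Htt-72Q (SD, n = 4), and Plxnb2 averaged 88.8 ± 33.3, 69.2 ± 14.6 and 79.5 ± 33.2 CPM. Neither passed in any comparison. Plxnb3, a scarce receptor of Sema5a, lay at 4.05, 3.53, 3.28 and 1.77 CPM in control vector, 1.56, 1.35, 1.98 and 1.59 CPM in Htt-25Q and 2.17, 1.91, 1.67 and 1.11 CPM in Htt-72Q. Control vector 4 lay within the range of the other groups, and Htt-25Q was as low as Htt-72Q. The call against control vector (-0.90 ± 0.30, adjusted p = 0.0428) was lost without any 1 of 10 libraries, which are all but control vector 4 and Htt-72Q 1 (adjusted p = 0.0504 to 0.118), and with library class in the model (0.0549). Against Htt-25Q the value was 0.07 ± 0.30 (adjusted p = 0.902).

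Plxnd1, the receptor of Sema3e, fell most of the 31. It lay at 200, 168, 109 and 154 CPM in control vector, 79.9, 89.3, 166 and 119 CPM in Htt-25Q and 24.6, 25.6, 17.3 and 22.6 CPM in Htt-72Q. The Htt-72Q values were close together and all under the lowest of the others, 79.9 CPM. Plxnd1 fell 6.99-fold against control vector (-2.81 ± 0.24, adjusted p = 2.48e-06) and 5.03-fold against Htt-25Q (-2.33 ± 0.24, adjusted p = 1.04e-05). Plxnc1, the receptor of Sema7a, lay at 158, 86.3, 79.4 and 79.0 CPM in control vector, 113, 90.5, 99.3 and 96.6 CPM in Htt-25Q and 67.6, 63.6, 56.7 and 65.7 CPM in Htt-72Q. The groups did not overlap, and control vector 1 was far above the rest. Its fold change was -0.67 ± 0.19 against control vector (adjusted p = 0.0221), -0.37 without control vector 1 (0.0289), and not called without Htt-72Q 3 (0.0569). Against Htt-25Q it was -0.66 ± 0.19 (adjusted p = 0.0252), a call lost without Htt-25Q 1 or 4 or Htt-72Q 2, 3 or 4 (adjusted p = 0.051 to 0.0674) and with library class in the model (0.07).

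Both neuropilins, the co-receptors of secreted semaphorins and of vascular endothelial growth factors, fell. Nrp1 lay at 28.5, 28.1, 29.9 and 42.7 CPM in control vector, 24.7, 28.7, 51.1 and 50.7 CPM in Htt-25Q and 14.0, 14.1, 18.7 and 21.3 CPM in Htt-72Q. The libraries of preparations 27 and 27_1 were the highest of each group, and the Htt-72Q libraries lay below all others. Nrp1 differed by -0.92 ± 0.25 from control vector (adjusted p = 0.0151) and by -1.19 ± 0.25 from Htt-25Q (adjusted p = 0.00331). Nrp2 was more even, at 33.4, 33.6, 30.6 and 26.0 CPM in control vector, 26.0, 31.1, 25.8 and 28.4 CPM in Htt-25Q and 18.9, 17.9, 21.2 and 21.5 CPM in Htt-72Q. Its groups did not overlap. The log2 fold change was -0.64 ± 0.13 against control vector (adjusted p = 0.0031) and -0.48 ± 0.13 against Htt-25Q (adjusted p = 0.017), the latter lost without Htt-25Q 2 (0.0576) or Htt-72Q 2 (0.0606). Per length, the ratio of Nrp1 to Nrp2 was 3.29, 3.97 and 3.58 in control vector 4 and Htt-25Q 3 and 4, the libraries of preparations 27 and 27_1 outside Htt-72Q. It was 1.67 to 1.96 in the other 5 libraries of those groups and 1.48 to 1.99 in Htt-72Q.

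**Figure D4:**
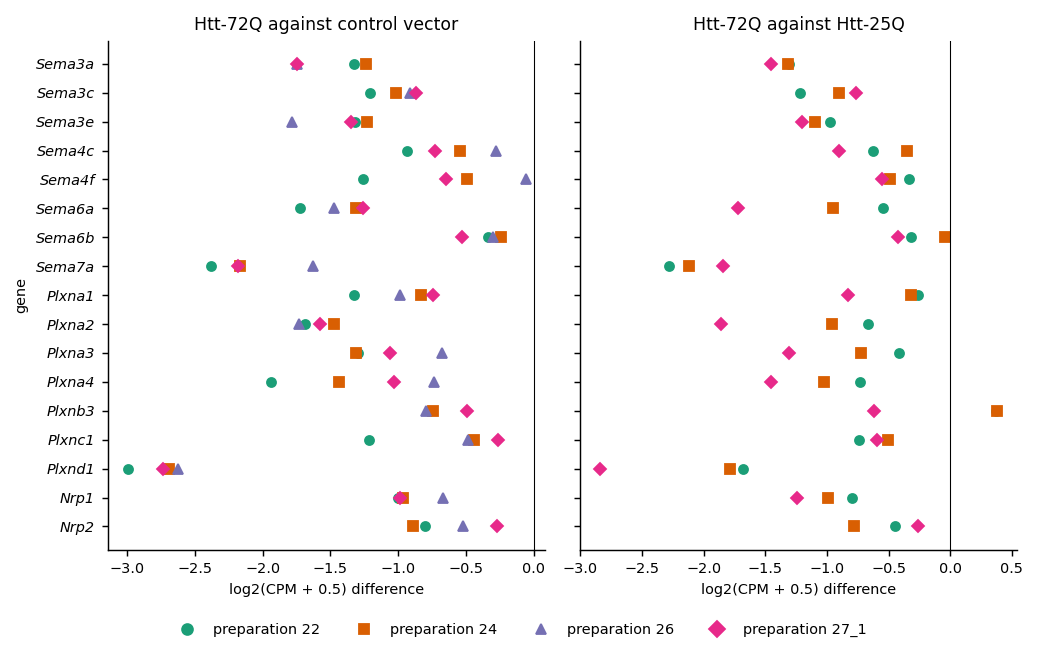
Difference in log2(CPM + 0.5) between Htt-72Q and control vector (left) or Htt-25Q (right) within each preparation that holds both groups, for the 17 members called lower against control vector. On the left all points lie below 0. On the right Plxnb3 lies above 0 in 2 of 3 preparations, at most at 0.38.

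A part of the known ligand and receptor pairs was read together. Of 11 receptors 9 were lower against control vector and 7 against Htt-25Q, and of 20 ligands 8 and 6. Whether known partners fell together more often than other pairs was not tested. Both partners fell against both groups for Sema3e and Plxnd1, for Sema7a and Plxnc1, and for Sema6a with Plxna2 and Plxna4. The same held for Sema3a with Nrp1 and Plxna4 and for Sema3c with Nrp1 and Nrp2. The call of Plxnc1 against Htt-25Q was lost without some single libraries. Plxna1 and Sema6d, in none of these pairs, did not pass against Htt-25Q (-0.52 ± 0.27, adjusted p = 0.19, and -0.05 ± 0.18, adjusted p = 0.882). For Sema4d and Plxnb1 neither passed. For Sema4c and Plxnb2 the ligand fell and the receptor did not pass (-0.16 ± 0.29 against control vector, adjusted p = 0.734). For Sema3f the receptors Nrp2 and Plxna3 fell against both groups and the ligand did not pass (adjusted p = 0.056 against control vector and 0.337 against Htt-25Q). For Sema5a and Plxnb3 the receptor was called lower against control vector and the ligand did not pass (-0.05 ± 0.24, adjusted p = 0.911).

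The stretch of 250 bases before the gene start was examined in the RefSeq promoter table (GRCm38.p6). The promoter table matched 26 of the 31 members at 37 starts. The GC box GGGCGG, on either strand, was in 27 of 37 member stretches (73.0%) and in 32.7% of 32851 stretches of all genes. The TATA box TATAAA was in 0 of the 37 and in 12.4% of all, and the E-box CACGTG in 5.41% and 6.02%. Median GC content was 64.0% in members and 52.4% in all, and the shares of motifs were not matched for it. Stretches of the Plxnd1, Sema7a, Sema3a and Sema3e genes are shown, 5′ to 3′ on the strand of the gene, because these are the plexin and the 3 ligands with the largest falls against control vector, and they include Sema3e with its receptor. Capitals mark the GC box on either strand. No GENCODE M21 exon overlaps the 4 stretches, and that of Sema3a lies within an intron of the longer Sema3a model. Such a match is a description of letters and says nothing of which factor binds.
Plxnd1 (chr6:115995006-115995255, minus strand, GRCm38.p6): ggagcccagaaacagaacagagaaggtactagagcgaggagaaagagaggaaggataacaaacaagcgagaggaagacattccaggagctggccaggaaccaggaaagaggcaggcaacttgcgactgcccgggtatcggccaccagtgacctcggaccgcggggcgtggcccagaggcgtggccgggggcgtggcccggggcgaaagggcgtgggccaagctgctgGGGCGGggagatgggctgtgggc
Sema7a (chr9:57939862-57940111, plus strand, GRCm38.p6): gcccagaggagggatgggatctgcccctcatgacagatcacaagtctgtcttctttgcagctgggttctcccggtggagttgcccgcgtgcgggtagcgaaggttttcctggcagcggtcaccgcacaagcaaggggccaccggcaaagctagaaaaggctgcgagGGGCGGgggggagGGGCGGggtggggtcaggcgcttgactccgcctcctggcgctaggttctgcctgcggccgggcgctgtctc
Sema3a (chr5:13396534-13396783, plus strand, GRCm38.p6): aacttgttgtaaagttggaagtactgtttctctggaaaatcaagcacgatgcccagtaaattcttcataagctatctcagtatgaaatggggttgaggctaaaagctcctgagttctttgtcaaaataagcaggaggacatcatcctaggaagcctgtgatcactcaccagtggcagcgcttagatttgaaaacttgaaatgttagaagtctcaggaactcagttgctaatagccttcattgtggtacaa
Sema3e (chr5:14025026-14025275, plus strand, GRCm38.p6): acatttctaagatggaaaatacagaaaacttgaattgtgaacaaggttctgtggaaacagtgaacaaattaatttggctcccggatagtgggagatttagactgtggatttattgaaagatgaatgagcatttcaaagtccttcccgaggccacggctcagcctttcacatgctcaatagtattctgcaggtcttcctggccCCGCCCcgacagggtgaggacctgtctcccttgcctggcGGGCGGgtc
The stretches of Sema7a and Sema3e hold 2 GC boxes each and that of Plxnd1 holds 1. Sema3a has none and a GC content of 40.8%, the lowest of the 4. Any link between these motifs and the falls was not tested.

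The comparison of Htt-25Q with control vector shares its controls with the first comparison. No member was called, and 0% of all genes were called, with an adjusted p of 1 for every member. The ranges of these groups overlapped for each of the 31, beside 0.993% of all genes without overlap (0.673% higher and 0.32% lower). At an unadjusted p under 0.05 there was 1 member in edgeR (Plxnb3, -0.97 ± 0.29) and 2 each in DESeq2 and limma voom, beside 0.877%, 1.05% and 0.904% of all genes tested. Log2 fold changes of the members ran from -0.97 to 0.27, with a median of -0.14 for ligands and -0.36 for receptors. The median over all members was -0.18, and -0.02 without control vector 1. Over all genes tested it was -0.002 and 0.01 in the same order. Within preparations 22, 24 and 27_1, which hold both groups, 6 members were lower in all 3 and 1 was higher in all 3, beside 9.47% and 11.9% of all genes.

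Other genes of the pathway were taken from lists of 52 partners and effectors, of which 46 could be tested. Against control vector 15 were lower and 4 higher in Htt-72Q, and against Htt-25Q 12 were lower and 4 higher. Over all genes tested 13.7% were lower and 9.44% higher in the first comparison, and 13.4% and 9.07% in the other, so the 4 higher genes are near the background share. Of the 14 co-receptors and receptor partners 9 could be tested, and 4 fell while 1 rose in each comparison. Met, the receptor of hepatocyte growth factor, which associates with plexins, lay at 372, 293, 234 and 287 CPM in control vector, 282, 250.2, 339 and 313 CPM in Htt-25Q and 51.2, 49.8, 47.5 and 60.6 CPM in Htt-72Q. Its Htt-72Q libraries were far below all others (-2.50 ± 0.15 in both comparisons, adjusted p = 1.66e-07 and 1.52e-07). L1cam and Nrcam, adhesion molecules that bind neuropilins, fell by 0.89 ± 0.20 and 0.60 ± 0.14 on the log2 scale against control vector (adjusted p = 0.0052 and 0.00676). Among 4 vascular endothelial growth factor ligands of neuropilins, Vegfa fell against control vector (-0.67 ± 0.21, adjusted p = 0.0341) and Pgf, at 1.41 CPM in control vector and 3.65 CPM in Htt-72Q, rose (1.35 ± 0.35, adjusted p = 0.0131).

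Of the 8 CRMP and MICAL effectors, cytosolic proteins that pass semaphorin signals to microtubules and actin, 6 fell against control vector and 4 against Htt-25Q, and none rose. Dpysl5, a CRMP of growing neurites, averaged 741 ± 233 CPM in control vector, 591 ± 40.9 CPM in Htt-25Q and 297 ± 54.3 CPM in Htt-72Q (SD, n = 4). It fell by 1.32 ± 0.19 on the log2 scale against control vector (adjusted p = 0.000207) and by 0.99 ± 0.19 against Htt-25Q (adjusted p = 0.00179). Dpysl3 and Dpysl2 fell by 0.89 ± 0.13 and 0.44 ± 0.10 against control vector (adjusted p = 0.000161 and 0.00605). Of the 18 plexin-linked GTPases and regulators, 2 were lower and 1 higher against control vector, near the 23.2% called over all genes. There Rras2, a Ras-family GTPase, fell (-0.99 ± 0.13, adjusted p = 8.37e-05). Of 7 kinases and actin regulators tested, Cdk5r1, the activator of Cdk5, fell by 1.08 ± 0.13 (adjusted p = 4.78e-05) and Cdk5 by 0.48 ± 0.15 (adjusted p = 0.0293), while Limk1, which inactivates cofilin, rose (0.46 ± 0.13, adjusted p = 0.0215). Fyn fell against Htt-25Q (-0.32 ± 0.11, adjusted p = 0.0415).

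**Figure D5:**
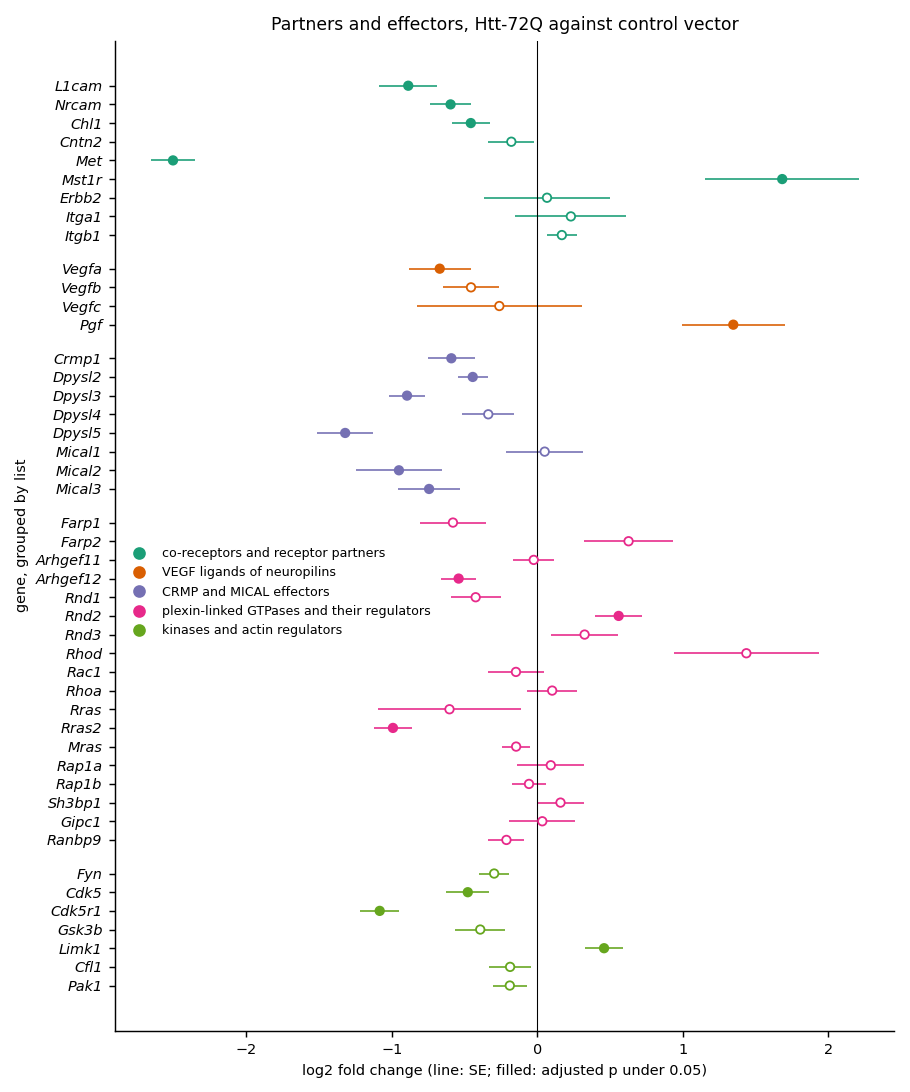
Log2 fold change of the 46 tested partners and effectors in Htt-72Q against control vector, by list, with lines for the SE and filled points for an adjusted p under 0.05. Met lies farthest to the left at -2.50, and most GTPases and regulators are open points near 0.

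A part of the neuronal markers also fell in Htt-72Q. Of all genes tested 13.7% were called lower against control vector and 13.4% against Htt-25Q, and 9.44% and 9.07% higher. Of 6 general neuronal markers 4 fell against control vector and 3 against Htt-25Q. The summed level of the 6 was 4667 to 4870 CPM in Htt-72Q, 6476 to 7503 CPM in control vector and 5932 to 6936 CPM in Htt-25Q. Of 6 excitatory markers 5 fell, with Slc17a6 as the exception (0.37), and the sum was 374 to 541, 801 to 1123 and 773 to 1227 CPM in that order. Of 6 inhibitory markers 3 fell against each group and none was called higher. The highest uncalled value was 0.94 against control vector and 1.09 against Htt-25Q. Sums of the 6 were 103 to 163, 207 to 276 and 164 to 295 CPM. None of 6 astrocyte and 7 oligodendrocyte-lineage markers passed against either group, where 23.2% and 22.5% of all genes were called. Of 6 tested progenitor markers none passed against control vector, and Vim was higher against Htt-25Q (0.48 ± 0.17, adjusted p = 0.0496). The sums of these 3 lists in Htt-72Q were 1062 to 1265, 518 to 632 and 274 to 351 CPM, and in control vector 932 to 1233, 535 to 710 and 245 to 270 CPM. Microglial, endothelial and fibroblast or mural markers summed to at most 24.6, 4.46 and 22.4 CPM in either group, and Tmem119, Cldn5, Cdh5 and P2ry12 had 6 counts or fewer in every library. Of 3 tested fibroblast or mural markers Rgs5 was lower against both groups (-2.37 ± 0.55 and -1.80 ± 0.56, adjusted p = 0.00651 and 0.0315), at 1.64 ± 0.470 CPM in control vector and 0.303 ± 0.226 CPM in Htt-72Q (SD, n = 4). The part of these marker changes in the results on semaphorins and plexins was not tested.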

How the data were processed

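STAR 2.0.4b, Subread, featureCounts 1.45 and the build GRCm38 are listed in the submitters' processing notes without roles or settings, and strand use is not given in the sources used here. Per the file headers, the authors deposited for each library a count of reads per gene beside CPM and RPKM. Both scaled columns could be recomputed from counts and gene lengths, so only the deposited counts were analysed. Differential expression was tested with the edgeR 4.0.16 quasi-likelihood test (R 4.3.3, TMM factors 0.961 to 1.05, filterByExpr minimum count 10), in 1 fit of all 12 libraries on group with 9 residual degrees of freedom. Calls are two-sided with a Benjamini-Hochberg adjusted p under 0.05 over 14707 genes. Values are TMM-scaled CPM, ± is the SE of a log2 fold change or the SD of a level, and differences within preparations use a pseudocount of 0.5. No pair of libraries was a duplicate (smallest chi-square per degree of freedom 9.00). The number of libraries limits the precision, as do the low counts of Sema3g.

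Members, pathway lists and markers were chosen with earlier results of these data known. Every library value is given for members called in any comparison with a group mean of at least 1 CPM. Of the pathway lists, at most 3 called genes with the smallest p are named per list and comparison, with the same minimum, and some of them are not reported here. The genes of the printed promoter stretches and the class of library were chosen after values were seen. Deviations from group means correlated across genes above 0.1 in 10 of 10 pairs of libraries with the same preparation number (0.113 to 0.501). Of the pairs with different numbers 6 of 38 did so (-0.516 to 0.463). The main fit holds only the group. The numbers were used as blocks in alternatives, and blocked values are given where they change a call. Alternatives were DESeq2 1.42.0, limma 3.58.1 voom, other scaling factors and filters, a threshold of 0.01, fits of 2 groups, blocks, a surrogate variable (sva 3.50.0), library class and leaving out each library.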

Additional observations from a re-analysis of the deposited data

Results flagged for a closer look

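In 8 of 93 sets of 4 libraries (31 genes in 3 groups) 1 library lay far from the other 3, by a gap above the 95% limit of Dixon's test, and chance gives about 1 in 20. In control vector 4, from preparation 27_1, Sema3a lay at 147.11 CPM where the others lay at 80.3 to 80.9, and Nrp1 at 42.6627 CPM where the others lay at 28.1 to 29.9. In control vector 1 there were 3: Sema3c lay low at 69.0535 CPM (others 93.4 to 96.6), and Sema4d at 23.4729 CPM (others 7.71 to 10.3) and Plxnc1 at 157.704 CPM (others 79.0 to 86.3) lay high. Sema3c was also low in Htt-25Q 1, from the same preparation 22, at 69.3021 CPM against 86.4 to 87.0 CPM. Sema4c in Htt-72Q 4 lay at 10.3028 CPM (others 14.0 to 14.3) and Sema6c in control vector 3 at 8.42663 CPM (others 5.86 to 5.90).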

How the results depend on the processing

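No called log2 fold change turned its sign in the alternatives run. Of 2414 values over members, comparisons and settings, 2321 kept their side of the threshold, 73 called values were no longer called, 20 values became called, and 83 uncalled values changed sign. At a threshold of 0.01, 10 members were lower in Htt-72Q against control vector, beside 1273 of 14707 genes tested (17 and 2022 at 0.05). The count of members higher against Htt-25Q, which is Sema3g alone, was 0 at that threshold and 0 with a filter of at least 1 CPM in 4 libraries, which leaves Sema3g out of the test, and it ranged from 0 to 1 when libraries were left out in turn. Leaving out libraries gave 13 to 18 lower members against control vector and 10 to 15 against Htt-25Q. Over all genes, 1695 to 1999 and 1514 to 2229 were then lower, of 14822 to 15105 tested. A replicate block gave 18 lower members against control vector by title number or by preparation and 19 with 27 and 27_1 as 1 preparation, and 14, 14 and 15 against Htt-25Q. Over all 14707 genes these blocks gave 2233, 2523 and 2732 lower against control vector and 2246, 1967 and 2467 against Htt-25Q. No call was lost under a block, and none was gained beyond those given beside Sema3f, Sema4g, Sema6c and Plxna1. Scaling by library totals alone moved the median of all genes to 0.11 against control vector and 0.10 against Htt-25Q. It gave 15 and 12 lower members, beside 1702 and 1690 of 14707 genes tested. Fits of only the 2 groups compared gave 13 lower members against control vector (1698 of 13973 genes tested) and 13 against Htt-25Q (2031 of 14384). There Sema4f, Sema6b, Plxnb3 and Plxnc1 were no longer called against control vector (adjusted p = 0.05055 to 0.08609). The cause of these changes was not tested. Sema3g, with 5 to 24 counts a library, had the lowest counts of the members.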
